A study of Rattus norvegicus with 36 samples.

Results

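Interferon-stimulated genes are the genes that cells switch on when they sense interferon, the family of secreted proteins released on infection. The set described here holds 43 named genes of 8 roles, and its members are the rows of the raw count table that carry one of these symbols and have counts. Of the 43 names, 42 were found among the 24773 genes of the table. The remaining name, *Xaf1*, is absent in that spelling. A row spelled XAF1 in capitals, on chromosome 10 of rn6 at 58860940 to 58873674, was kept out of every count below and is described at the end. A filter on low counts kept all 42 members among 13026 genes in ileum, and 41 members among 12906 genes in colon. The member that did not pass in colon was *Dtx3l*, which had 110 counts there in all 18 libraries.

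The libraries came from 18 male UCD-T2DM rats, a strain bred to develop type 2 diabetes of polygenic origin with intact leptin signaling. Group ND held 6 non-diabetic rats aged 70 days. Group D1M held 6 rats aged 168 to 172 days with 22 to 23 days of diabetes, and group D3M held 6 rats aged 172 to 173 days with 88 to 116 days of untreated diabetes. The distal ileum and the proximal colon of each rat were sequenced, which gave 36 libraries of poly-A RNA from whole tissue. No healthy strain of similar genetic background was included, and the ND rats were younger and born on later dates. In any comparison with ND, diabetes therefore cannot be told apart from age and birth cohort. All 6 D3M rats were of 1 birth cohort, and 5 of the 6 D1M rats were of another. Between D1M and D3M, the duration of diabetes can therefore hardly be told apart from birth cohort. In bulk tissue, fewer cells of a type and less RNA per cell also cannot be told apart.

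As background, type I interferons (alpha and beta) and type III interferons (lambda) act through the kinases Jak1 and Tyk2 on a complex that holds Stat2 and Irf9. This complex binds the interferon-stimulated response element (ISRE) in the promoters of its targets. Type II interferon (gamma) acts on the gamma-activated site (GAS) and drives *Irf1*, antigen processing genes and the chemokines *Cxcl10* and *Cxcl11*. In the intestine the epithelium responds mainly to interferon lambda and the cells beneath it mainly to type I interferon. Many of the induced proteins destroy or trap viral RNA.

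Promoters are shown here because the ISRE is named for the response of these genes to interferon, and 19 of the promoters that could be matched held its core. RefSeq promoters of the build GRCr8, running from 250 bases before to 50 after the gene start, were matched to 32 of the 43 names. *Ddx58*, *Dhx58*, *Ifit1*, *Ifit2*, *Isg15*, *Mx2*, *Oas2*, *Rtp4*, *Samd9l*, *Usp18* and *Zbp1* were not matched. The ISRE core GAAANNGAAA was searched on both strands. It was found in 59.4% of these 32 promoters and not in the remaining 13, such as that of *Mx1*, against 1131 of 27457 promoters of the whole table (4.12%). The GAS core TTCNNNGAA, whose reverse complement is the same pattern, was found in 8 of 32 (25%), against 2577 of all promoters (9.39%). These shares describe letters in a window and do not show binding. The 60 bases around one match are printed below for members of 7 roles, 5′ to 3′ on the strand of the gene, with the matched letters in capitals. A match on the opposite strand reads TTTC and then, after a gap of 2 bases, TTTC. In *Oas1a* the capitals hold a pair of overlapping matches. The last line shows a GAS core. The windows lie, in the order of the lines, at chr3:67683993-67684052 (-), chr1:205800058-205800117 (-), chr1:241527257-241527316 (+), chr12:41330406-41330465 (+), chr6:48788233-48788292 (-), chr20:4657001-4657060 (-), chr2:234005671-234005730 (+), chr14:15988816-15988875 (+), chr6:128355203-128355262 (+) and chr10:38417767-38417826 (+).
Ifih1: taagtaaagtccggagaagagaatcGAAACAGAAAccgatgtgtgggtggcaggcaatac
Irf7: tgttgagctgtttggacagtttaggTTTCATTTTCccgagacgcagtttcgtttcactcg
Ifit3: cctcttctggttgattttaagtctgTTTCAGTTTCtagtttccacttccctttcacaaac
Oas1a: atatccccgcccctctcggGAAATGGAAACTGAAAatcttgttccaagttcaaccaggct
Rsad2: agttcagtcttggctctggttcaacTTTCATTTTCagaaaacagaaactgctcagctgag
Psmb8: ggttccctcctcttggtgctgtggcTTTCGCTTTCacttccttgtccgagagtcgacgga
Gbp2: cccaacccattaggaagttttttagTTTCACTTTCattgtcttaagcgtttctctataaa
Cxcl10: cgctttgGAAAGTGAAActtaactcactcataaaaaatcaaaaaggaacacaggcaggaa
Ifi27: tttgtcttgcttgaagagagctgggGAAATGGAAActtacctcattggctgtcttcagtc
Irf1 (GAS core): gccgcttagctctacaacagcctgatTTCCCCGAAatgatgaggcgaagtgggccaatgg

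Total counts ranged from 12279059 to 21510043 in ileum and from 10024041 to 18299050 in colon. Levels are given in CPM, the count of a gene relative to the library total, scaled within each tissue by TMM. Tissue labels were checked with *Fabp6*, the ileal bile acid binding protein, and *Car1*, a carbonic anhydrase of the colon. *Fabp6* reached 8706 CPM in the colon of the ND rat K4028, where the remaining colon libraries had 2.02 to 21.3 CPM. *Car1* reached 3616 CPM in the ileum of the ND rat K4040 and 1345 CPM in that of the D3M rat P762, where the remaining ileum libraries had at most 130.4 CPM. Fits without the colon library of K4028 and the ileum library of K4040 are given beside the results they touch.

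In the ileum, 6 rats stood apart from the other 12 across nearly the whole set, and they came in equal number from D1M and D3M. A score was made for each library as the mean, over the members that passed the filter, of the log2 CPM less that member's mean over the 18 libraries of the tissue. The ileum score was 1.99 in K3987, 1.37 in K3986 and 1.35 in K3978 of the D1M group. In the D3M group it was 1.6 in K3977, 1.21 in K3959 and 1.10 in K3961. The next rat was the ND rat K4038 at 0.08, and all others lay between -1.23 and -0.52. Within D1M and within D3M, then, the rats fell into a high and a low trio with no rat between them. Over each group of 6 rats the ileum score averaged -0.65 ± 0.44 (SD) in ND, 0.41 ± 1.30 in D1M and 0.25 ± 1.17 in D3M.

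**Figure D1:**
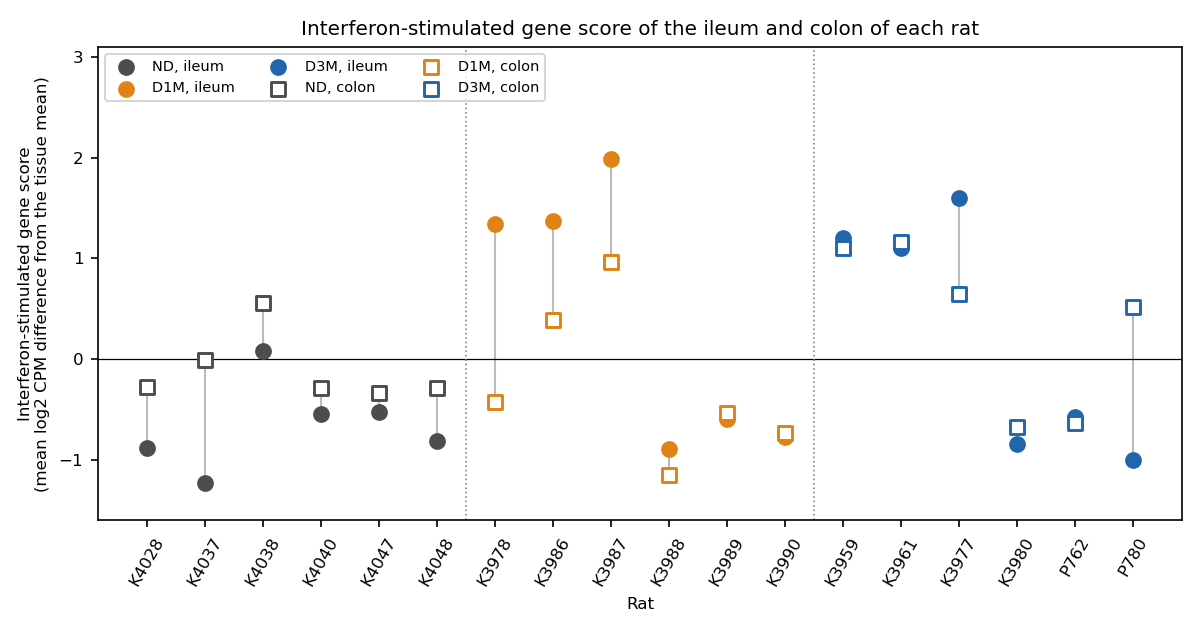
Interferon-stimulated gene score (mean log2 CPM less the tissue mean of each member) of the ileum, filled circles, and the colon, open squares, of each of the 18 rats, coloured by group and joined by a line for each rat. The ileum score is 1.10 or more in 3 D1M and 3 D3M rats and 0.08 or less in all others, while the colon scores form a continuous range from -1.15 to 1.17.

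The split was shared by nearly all members. Of the 42 members, 41 had K3987 among the 6 highest ileum libraries, 41 had K3977, 40 had K3978, 39 had K3986, 37 had K3959 and 37 had K3961. No other rat was among the 6 highest for more than 4 members. Across all 13026 genes, each rat was among the 6 highest for 28.6% to 38.3% of genes. The 6 rats were picked by a score made from these same members, so the member counts are in part fixed by that choice. They describe the split and are no test of it. K3987 alone was the highest of the 18 rats for 32 of 42 members. The heat map of all members shows the 6 columns side by side within their groups.

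**Figure D2:**
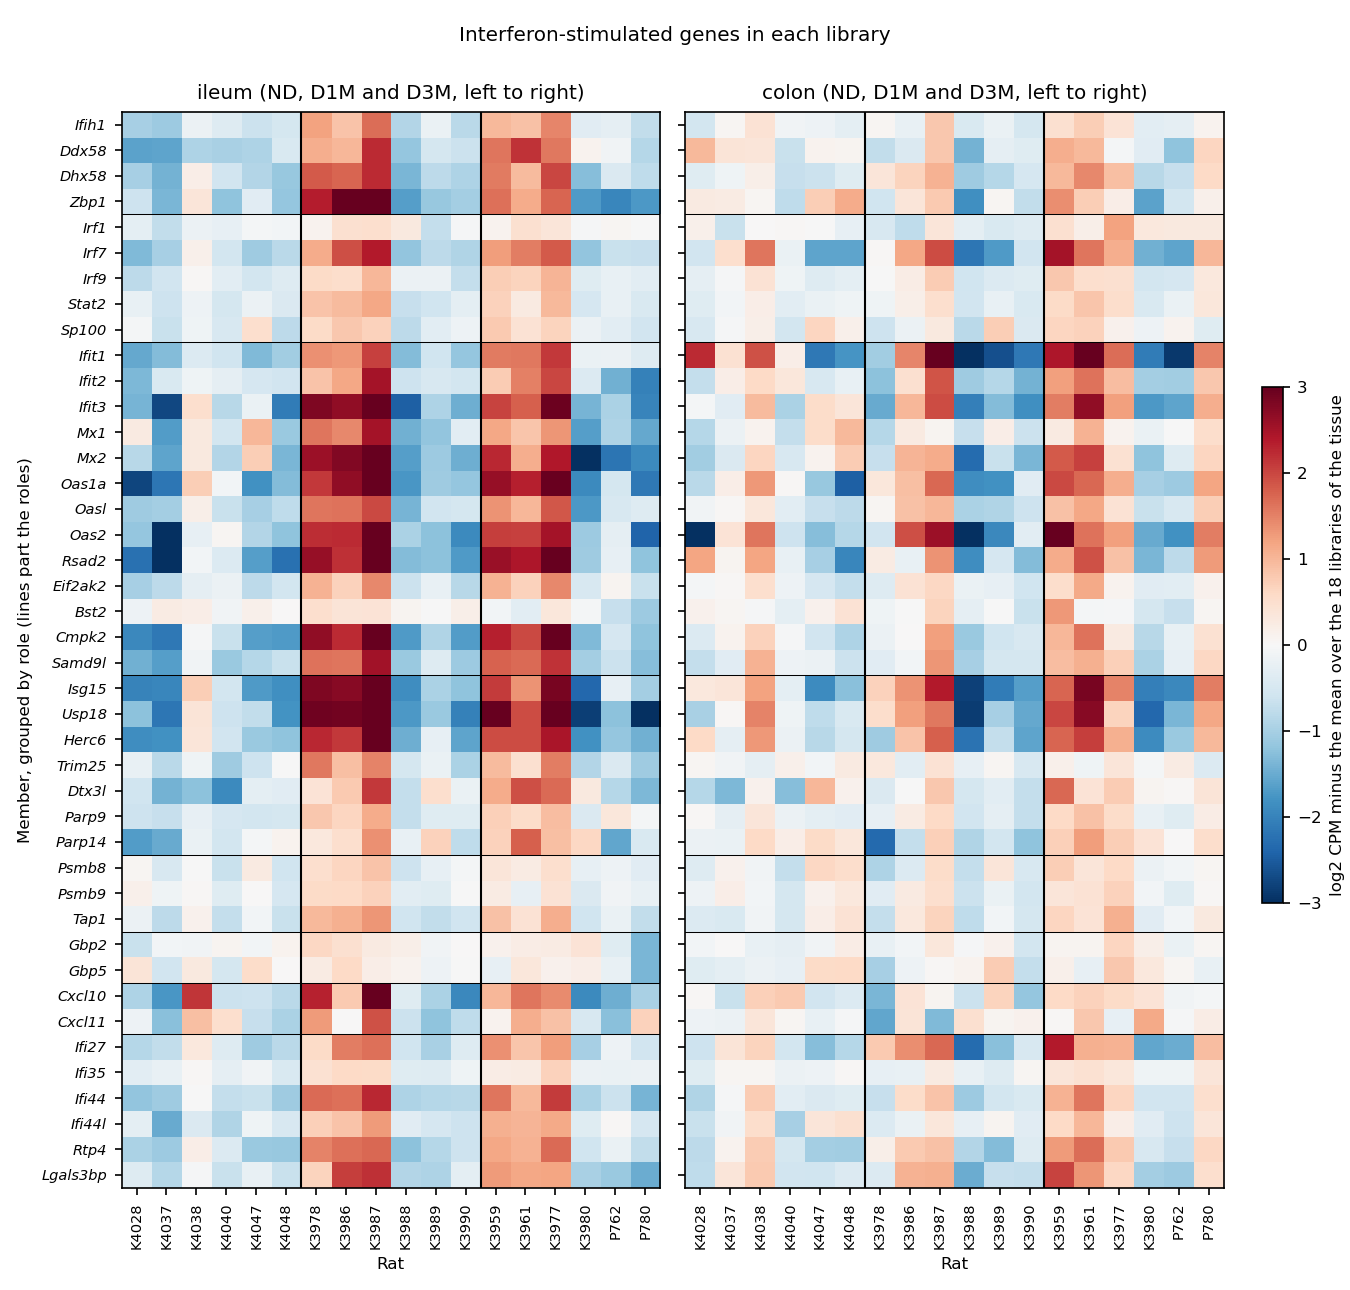
Log2 CPM of each member less its mean over the 18 libraries of the tissue, in ileum (left) and colon (right), with rats in columns ordered by group and members in rows ordered by role. Red marks values above and blue values below the tissue mean, and colours stop at 3 in either direction. The columns of K3978, K3986, K3987, K3959, K3961 and K3977 are red over most rows in ileum.

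These 6 ileum libraries did not share a flow cell. K3987, K3977, K3959 and K3961 were run on flow cell 1, K3986 on flow cell 2 and K3978 on flow cell 3. Of the 8 ileum libraries on flow cell 1, the other 4 (K3988, K3989, K3980 and K4048) had scores from -0.90 to -0.60. They did not share a birth date either. All 6 D3M rats and K3978 were born on 1 date, and the other 5 D1M rats, which include K3986 and K3987 as well as the low rats K3988, K3989 and K3990, on another.

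In the colon of the same rats the set was less sharply divided. The colon score was highest in K3961 (1.17), K3959 (1.11), K3987 (0.96) and K3977 (0.65), which were also 4 of the 6 high ileum rats. K3986 followed further down at 0.38. K3978 was the exception, with rank 4 of 18 in ileum and rank 13 of 18 in colon (-0.43). The opposite was seen in the D3M rat P780, which had rank 17 in ileum (-1.0) and rank 6 in colon (0.52). The ND rat K4038 had rank 7 in ileum and rank 5 in colon (0.56). The lowest colon score was that of the D1M rat K3988 (-1.15), the lowest library for 22 of 41 members. The colon score averaged -0.11 ± 0.35 (SD) in the 6 ND rats, -0.25 ± 0.78 in the 6 D1M rats and 0.36 ± 0.82 in the 6 D3M rats.

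RNA sensors recognise viral nucleic acid in the cytosol. The level of *Ifih1*, which encodes the sensor MDA5, had a lowest, median and highest value of 8.18, 11.7 and 15.6 CPM in ND ileum. In D1M ileum these values were 9.49, 23.4 and 56.4 CPM, and in D3M ileum 10.4, 23.4 and 49.0 CPM. The 3 high rats of each diabetic group all exceeded every ND rat (31.7 to 56.4 CPM in D1M and 32.2 to 49.0 CPM in D3M), and the 3 low rats of each group lay within the ND range. *Ddx58*, which encodes RIG-I, ran from 0.856 to 2.03 CPM in ND, from 1.21 to 13.9 CPM in D1M and from 1.504 to 13.2 CPM in D3M ileum. *Zbp1*, a sensor of Z-form nucleic acid, reached 165 CPM in K3987 against 5.36 to 18.1 CPM in ND rats. These 3 sensors thus lay above all ND rats in the high D1M rats, while the ranges of the whole groups overlapped.

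Among transcription factors, *Irf7*, the amplifier of type I interferon production, had a lowest, median and highest ileum level of 95.4, 129 and 268 CPM in ND rats. It had 106, 331 and 1252 CPM in D1M rats and 107, 361 and 857 CPM in D3M rats. The high rats had from 522 to 1252 CPM and the low diabetic rats from 106 to 151 CPM. The medians of both diabetic groups thus fall in a gap that holds no diabetic rat. *Irf7* overlaps *Phrf1* on the other strand, and which strand was counted is not known from the sources. *Irf1*, an early target of interferon gamma, behaved differently. Its ileum level was 115, 165 and 183 CPM (lowest, median and highest) in ND, 116, 221 and 272 CPM in D1M and 188, 203 and 269 CPM in D3M rats. Here all 6 D3M rats exceeded all 6 ND rats, the low-score rats included. That held for 2 of 42 members, a share near the 4.48% of all genes.

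Antiviral effectors such as *Ifit1* and *Rsad2* were widely split between the high rats and the others. *Ifit1*, which binds viral RNA caps, had from 64.7 to 142 CPM in ND ileum. It had 493, 466 and 785 CPM in K3978, K3986 and K3987 of D1M, and 558, 568 and 827 CPM in K3959, K3961 and K3977 of D3M. The low rats had 77.0 to 125 CPM in D1M and 144 to 167 CPM in D3M, so that the D3M range began just above the ND range. *Rsad2*, which encodes viperin, ranged from 5.43 to 56.8 CPM in ND ileum, and from 275 to 749 CPM in the 6 high rats. *Mx1*, a GTPase that hinders the replication of RNA viruses, ran from 5.21 to 34.0 CPM in ND, from 6.16 to 96.2 CPM in D1M and from 5.33 to 42.8 CPM in D3M ileum, with *Mx1* of the ND rat K4047 (34.0 CPM) above that of K3961 (30.2 CPM). In this member the high D3M rats and the ND rats overlapped. *Bst2* was not split, with 20.8 CPM in the high rat K3961, under the ND range of 23.5 to 30.9 CPM.

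*Isg15* encodes a ubiquitin-like tag placed on proteins during infection, and *Usp18* the protease that removes it and damps the receptor. The ileum level of *Isg15* was 29.0, 34.1 and 194 CPM (lowest, median and highest) in ND, 31.96, 418 and 959 CPM in D1M and 22.8, 198 and 834 CPM in D3M rats. In D1M the high rats had 814, 775 and 959 CPM and the others at most 60.2 CPM. *Usp18* ran from 3.69 to 22.0 CPM in ND rats and from 65.8 to 218 CPM in the 6 high rats, and it stayed at or under 7.70 CPM in the low rats of D1M and D3M. Both genes therefore spanned a range of over an order of magnitude within each diabetic group.

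In colon *Isg15* had 8.72, 33.5 and 75.4 CPM (lowest, median and highest) in ND, 4.54, 31.5 and 171 CPM in D1M and 7.76, 92.9 and 234 CPM in D3M rats. The highest colon levels were 234 CPM in K3961, 171 CPM in K3987, 109 CPM in K3959, 94.8 CPM in P780 and 91.0 CPM in K3977. The colon of K3978 held 52.8 CPM of *Isg15*, inside the ND range, while its ileum held 814 CPM.

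The immunoproteasome and guanylate binding genes, which also respond to interferon gamma, were less divided. *Psmb8*, a catalytic subunit of the immunoproteasome, had 40.1, 53.9 and 76.5 CPM (lowest, median and highest) in ND ileum and 40.9, 75.0 and 115 CPM in D1M ileum. Its median in D3M ileum was 65.7 CPM. *Gbp2*, a GTPase that attacks vacuoles of microbes, had medians of 21.8 CPM in ND, 26.9 CPM in D1M and 26.2 CPM in D3M ileum. The high D1M rats, with 28.0 to 35.8 CPM, lay above every ND rat and every low D1M rat (at most 25.8 CPM). In D3M the high rats did not stand apart, and the highest level was that of the low-score rat K3980 (30.8 CPM). The mean of *Gbp2* and *Gbp5*, centred as the score was, ran from -0.05 to 0.55 in the 6 high rats and from -0.33 to 0.30 in the others, apart from P780 (-1.37).

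*Cxcl10* encodes a chemokine that attracts T cells. Its ileum level was 10.3, 21.0 and 155 CPM (lowest, median and highest) in ND, 9.06, 43.6 and 296 CPM in D1M and 9.25, 43.9 and 107 CPM in D3M rats. The highest ND value, 155 CPM, was that of K4038, and the next ND rat had 22.5 CPM. K4038 exceeded all 3 high D3M rats in *Cxcl10* while its *Isg15* (194 CPM) was below all of them. *Cxcl10* and *Cxcl11* overlap *Art3* on the other strand. *Ifi27*, which is strongly induced by type I interferon, had 164, 198 and 426 CPM in ND, 174, 386 and 1081 CPM in D1M and 170.0, 458 and 879 CPM in D3M ileum.

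**Figure D3:**
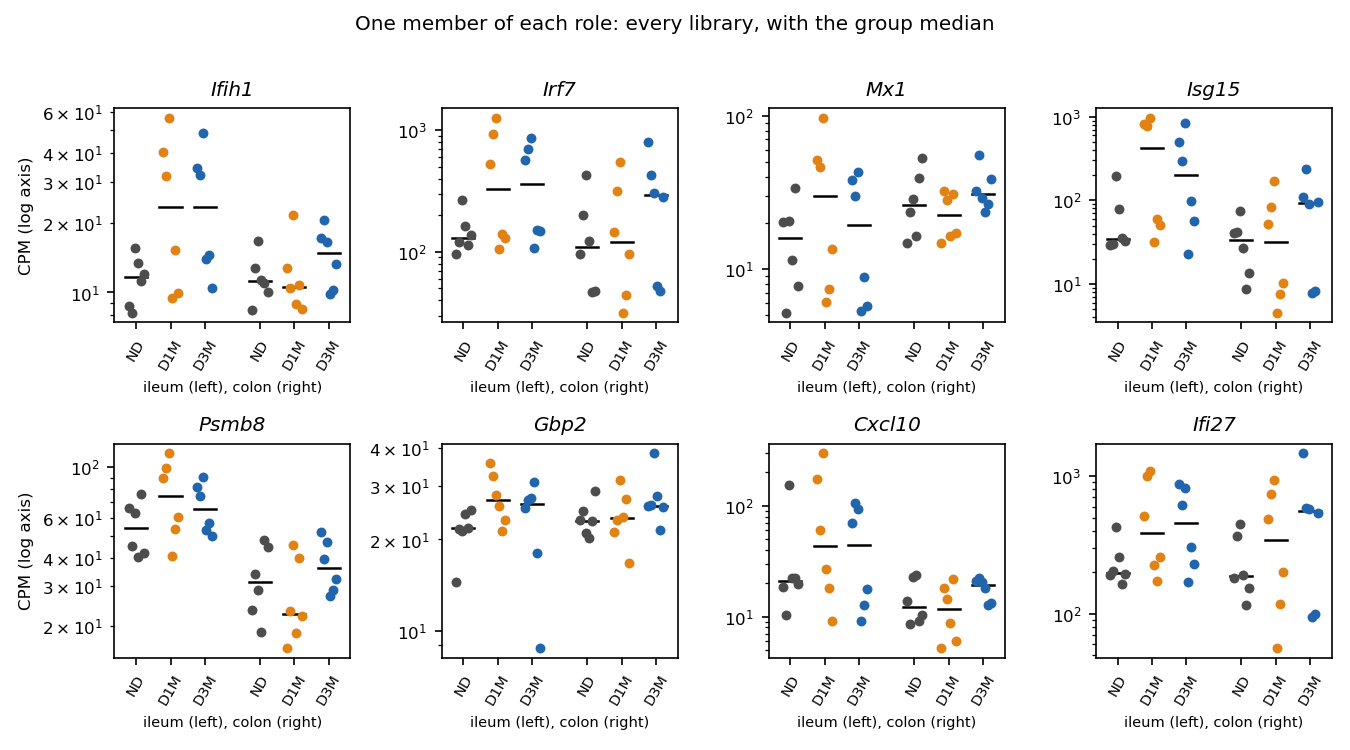
CPM on a log axis of 1 member of each of the 8 roles in every library, with a bar at the group median, for ND, D1M and D3M rats in ileum (left of each panel) and colon (right). In ileum the D1M and D3M points of *Ifih1*, *Irf7* and *Isg15* form an upper and a lower trio, and the D3M points of *Gbp2* do not.

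The spread from rat to rat within groups was larger for the members than for most genes. It is given as the biological coefficient of variation (BCV), the relative spread between rats of a group that remains after counting error. The median BCV of the members was 0.63 in ileum and 0.45 in colon, against 0.18 and 0.19 over all genes tested. All 42 members in ileum, and 40 of 41 in colon, lay above the median of all genes. Of the members, 23 in ileum and 13 in colon exceeded the 95th percentile of all genes. *Usp18* (1.16), *Ifit3* (1.07), *Mx2* (1.06), *Oas1a* (1.05) and *Oas2* (1.05) had the largest BCV in ileum. In colon they were *Oas2* (1.34), *Ifit1* (1.22), *Isg15* (0.99), *Usp18* (0.90) and *Irf7* (0.89). The colon level of *Oas2* was low, with a median of 0.68 CPM and no count in K4028 and K3988. The smallest values in ileum were those of *Bst2* (0.20), *Irf1* (0.22), *Ifi35* (0.23) and *Psmb9* (0.24).

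By role, the median BCV in ileum ran from 0.28 in the guanylate binding proteins and 0.29 in antigen processing to 0.79 in the antiviral effectors and in the chemokines. The spread also differed among groups as a description. The median SD of log2 CPM over members was 0.49 in ND, 1.28 in D1M and 1.19 in D3M ileum, against 0.26, 0.24 and 0.28 for all genes. In colon it was 0.53, 0.80 and 0.75, against 0.27, 0.29 and 0.26. *Mx2* had its lowest ileum level in K3980 (0.77 CPM) and its highest in K3987 (107 CPM), a ratio of 138.

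**Figure D4:**
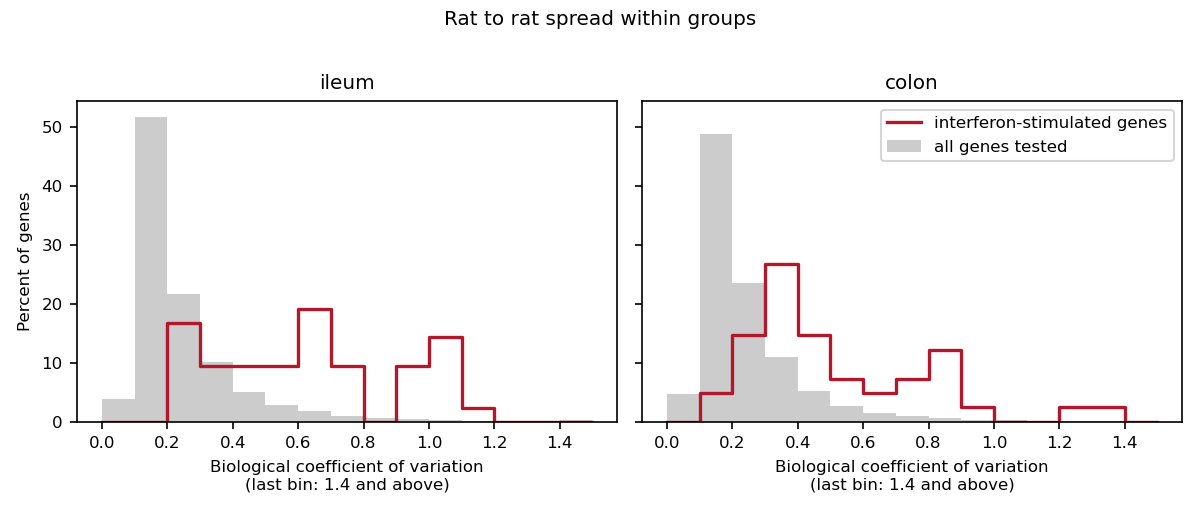
Percent of genes in each bin of the biological coefficient of variation, for all genes tested (grey bars) and for the interferon-stimulated genes (red line), in ileum (left) and colon (right). The members lie to the right of the bulk, with medians of 0.63 and 0.45 against 0.18 and 0.19.

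Recent diabetes was compared with the non-diabetic state first. In ileum, all 42 members had a positive log2 fold change in D1M vs ND, against 43.5% of all genes, and the median was 1.29 against -0.03. None of them passed the test at FDR < 0.05 in edgeR, where 0.0154% of all genes were called. At an unadjusted p below 0.05 there were 31 members of 42, against 8.34% of all genes, and DESeq2 called 0 members, with 34 below that p, against 8.71% of all genes. The count of 31 rested on single libraries. It was 0 without K3986, 3 without K3978 and 14 without K3987, the high D1M rats, and 8 without K4048 and 17 without K4037, both ND rats. The median stayed between 0.98 and 1.49 whichever library was left out. The sharing of high values among the same rats means that the 42 members are not independent measurements.

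The members with the smallest p in this comparison were *Ddx58* (log2 fold change 1.74 ± 0.60 SE, FDR = 0.496) and *Parp9*, an ADP-ribosyltransferase partner of *Dtx3l* (0.90 ± 0.32). They were followed by *Zbp1* (2.72 ± 0.98) and *Dtx3l* (1.4 ± 0.53). The largest differences were those of *Ifit3* (3.03 ± 1.21), *Usp18* (2.97 ± 1.31), *Isg15* (2.95 ± 1.11), *Rsad2* (2.94 ± 1.17) and *Cmpk2* (2.91 ± 1.07). The smallest was that of *Gbp5* (0.14 ± 0.26). By role, the median log2 fold change was 2.00 in the 13 antiviral effectors, 1.81 in the 4 sensors, 1.4 in the 7 genes of ISG15 and ADP-ribose conjugation, 0.56 in the 3 antigen processing genes and 0.25 in the 2 guanylate binding genes. At the unadjusted p, members passed in 10 of 13 effectors, 4 of 4 sensors and 0 of 2 chemokines. The groups overlapped for every member (0 of 42 without overlap, against 0.299% of all genes in that direction).

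In D3M vs ND ileum, 40 of 42 members were positive, against 41.6% of all genes, and the median was 1.00 against -0.08. Again none passed FDR < 0.05 in edgeR, although 12.5% of all genes were called in this comparison. At the unadjusted p there were 6 members, or fewer by share than the 29.7% of all genes. These were *Parp9* (0.98 ± 0.36 SE, FDR = 0.0852), *Ddx58* (1.76 ± 0.69), *Ifit1* (1.84 ± 0.76), *Ifi35* (0.51 ± 0.22), *Ifi44l* (1.03 ± 0.46) and *Irf1* (0.43 ± 0.20). Leaving out 1 library moved this count between 1 (without K3986 or K4048) and 14 (without K3987). Without the ileum library of K4040 it was 5, and the median was 1.11. DESeq2 called 3 of 42 members, *Parp9*, *Ddx58* and *Ifit1*, and 17.2% of all genes. Without the flow cell term, edgeR called 23.1% of all genes and 7 of 42 members: *Ifit1*, *Ifi44l*, *Ddx58*, *Rsad2*, *Cmpk2*, *Parp9* and *Dtx3l*. No D3M ileum library was on flow cell 2, and 4 were on flow cell 1, the flow cell of 1 ND library. On flow cell 3, with 2 libraries a group, the median was 0.01 with 21 members positive. The D3M rats there were P762 and P780, both of low score.

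Values of all D3M rats were above those of all ND rats for *Ifit1* and *Irf1* only, 2 of 42 members, against 4.48% of all genes in that direction. *Bst2* (tetherin, -0.32 ± 0.19) and *Gbp5* (-0.15 ± 0.29) were the 2 negative members. Of the positive ones, *Gbp2* (0.00 ± 0.26), *Mx1* (0.31 ± 0.99) and *Cxcl10* (0.40 ± 1.29) turned sign in some fits without 1 library.

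Between the diabetic groups, D3M vs D1M ileum, 8 members were positive against 43.5% of all genes, with a median of -0.29 against -0.04. In edgeR 0 members were called, with 2.22% of all genes called. At the unadjusted p only *Bst2* passed (-0.56 ± 0.17 SE, FDR = 0.0889), against 19.1% of all genes, and DESeq2 called it, with 7.06% of all genes called. *Bst2* is also the member with the smallest spread in ileum. It had 25.8, 31.6 and 36.8 CPM (lowest, median and highest) in D1M and 12.1, 22.6 and 32.7 CPM in D3M rats, so the ranges overlapped. The next members by p were *Zbp1* (-1.65 ± 0.99), *Gbp2* (-0.35 ± 0.23) and *Mx2* (-1.49 ± 1.15). The median of the set depended on which libraries were in the fit. Without K3987 it was 0.26, within flow cell 1 it was 0.26 with 33 members positive, and within flow cell 3 it was -1.23 with 0 positive.

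**Figure D5:**
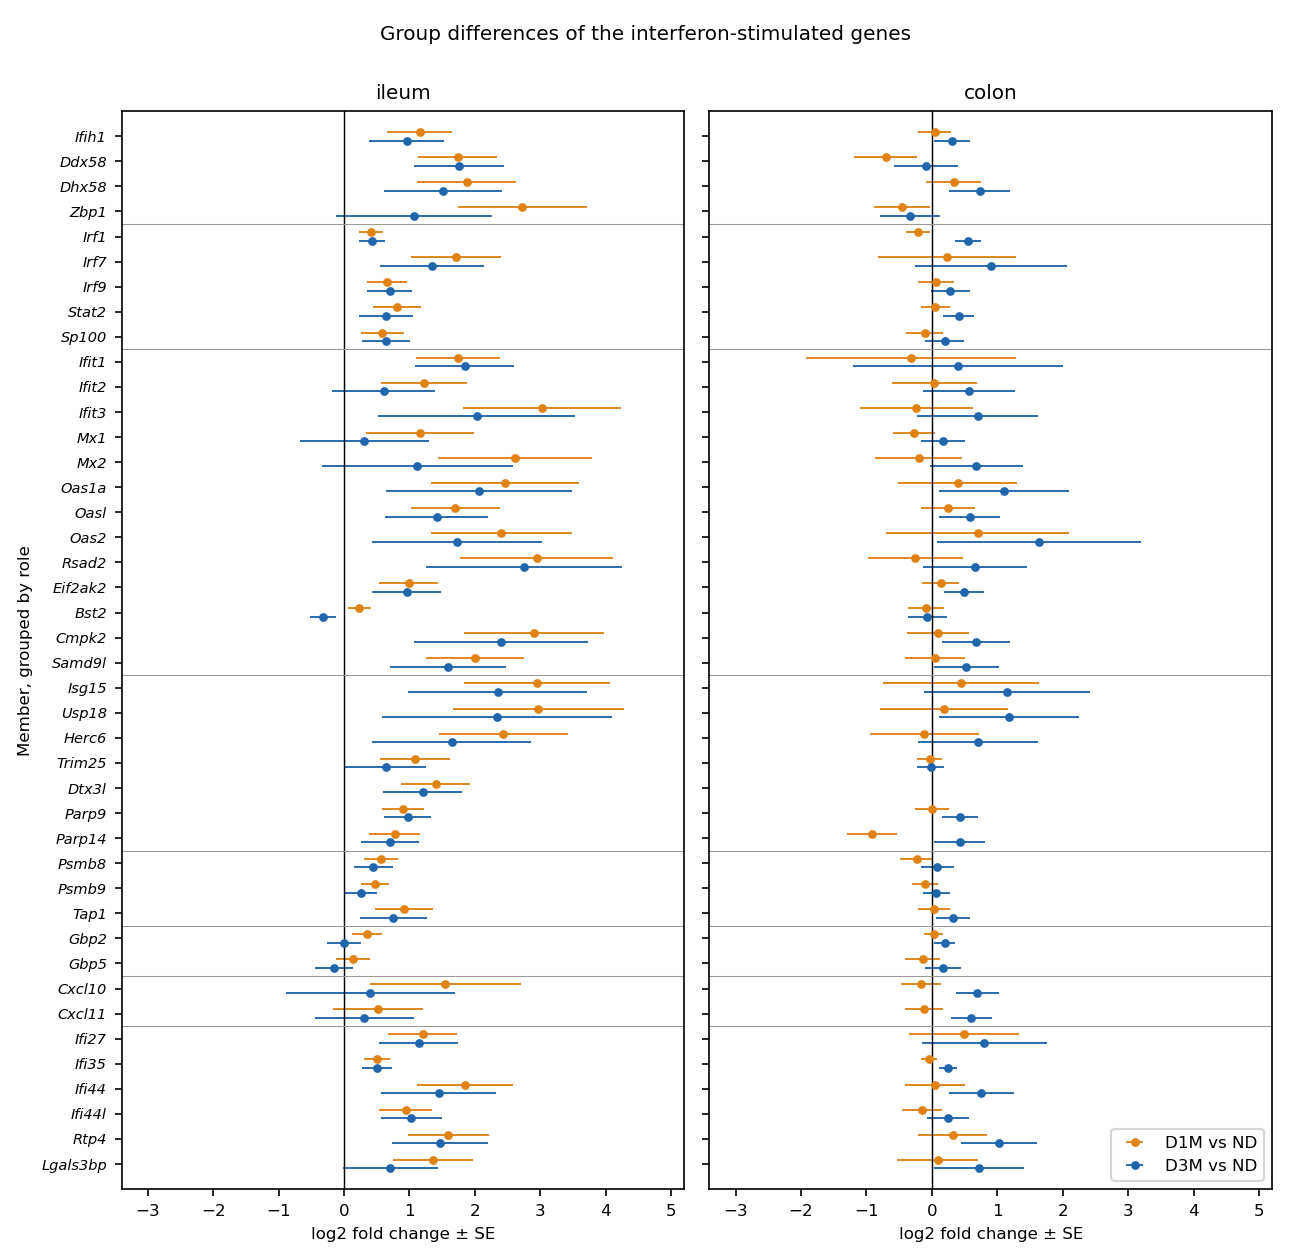
Log2 fold change with its SE of each member in D1M vs ND and D3M vs ND, in ileum (left) and colon (right), ordered by role. In ileum all 42 members lie above 0 in D1M vs ND and 40 in D3M vs ND, with wide SEs, and in colon D1M vs ND is spread on both sides of 0. *Dtx3l* was not tested in colon.

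In colon, D1M vs ND gave 21 of 41 members positive, against 49.8% of all genes, and a median of 0.00. edgeR called 0 members and 0% of all genes, and DESeq2 called 0. At the unadjusted p there was 1 member in each tool, against 4.66% of all genes in edgeR and 5.67% in DESeq2. In edgeR it was *Parp14*, an ADP-ribosyltransferase (-0.92 ± 0.38 SE), at 1.79 to 3.17 CPM in ND and 0.303 to 3.49 CPM in D1M rats. The next members by p were *Ddx58* (-0.71 ± 0.48), *Irf1* (-0.22 ± 0.18) and *Zbp1* (-0.46 ± 0.43). Within flow cells the median was -0.69 on flow cell 1, 0.43 on flow cell 2 and 0.10 on flow cell 3. Without the colon library of K4028 the median was -0.06 with 13 members positive, and 0 were called.

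In D3M vs ND colon, 37 of 41 members were positive, against 47.6% of all genes, with a median of 0.53 against -0.01. edgeR called 0 members (0.0155% of all genes) and DESeq2 0. *Irf1* alone passed the unadjusted p in edgeR (0.55 ± 0.20 SE, FDR = 0.38), against 10% of all genes, and in DESeq2 there were 3, against 11.2%. The colon level of *Irf1* was 76.3, 120.0 and 133 CPM (lowest, median and highest) in ND rats and 137, 149 and 279 CPM in D3M rats. All 6 D3M rats thus exceeded all 6 ND rats, as in ileum. *Irf1* was the only member with no overlap here, 1 of 41, against 0.465% of all genes in that direction. When the fit held only these 2 groups, *Cxcl10* was called (0.81, FDR = 0.0477), with 2.5% of all genes called. In that fit 13 of 41 members passed the unadjusted p, against 19.6% of all genes. The count at the unadjusted p was 0 without K4048, 6 without K3980 and 7 without K3987, and the median was 0.16 without K3961. Without K4028, the colon library with ileal *Fabp6*, the median was 0.44 with 1 member at that p.

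In D3M vs D1M colon all 41 members were positive, against 47% of all genes, with a median of 0.48 against -0.01. edgeR called 0 members and 0% of all genes, and DESeq2 0. Both tools had 5 members at the unadjusted p, against 5.28% of all genes in edgeR and 5.7% in DESeq2. In edgeR these were *Irf1* (0.76 ± 0.19 SE, FDR = 0.775), *Parp14* (1.34 ± 0.40), *Cxcl10* (0.86 ± 0.32), *Cxcl11* (0.72 ± 0.32) and *Ifi35* (0.29 ± 0.13). Without K3961 the median was 0.17 with 3 members at that p, and without K3987 it was 0.97 with 17. The comparisons of a tissue share the ND or the D1M libraries, so their values are given side by side and not as separate evidence.

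The flow cell itself was tested in the same fits. No member was called for it in either tissue, while 4.93% of all genes in ileum and 11.8% in colon were. At the unadjusted p there were 2 members in ileum and 1 in colon, against 22% and 29.8% of all genes. DESeq2 was not run for this test.

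Levels were next compared between the tissues of the same rats, in a fit without a rat term. The SEs and FDRs of single members, here and in the tissue differences below, therefore do not use the pairing. Colon differed from ileum at FDR < 0.05 for 26 of 42 members, against 73.2% of all genes. Of these 25 were lower in colon, against 34.5% of all genes, and 1 was higher, against 38.7%. The log2 fold change was positive for 4 members, against 51.7% of all genes, and its median was -0.65 against 0.03. With the rat as a block there were 27 calls, against 71.4% of all genes, and a median of -0.59. Without the libraries of K4028 in colon and K4040 in ileum there were 25 calls and a median of -0.68. *Ifit1* (-2.99 ± 0.61 SE, FDR = 6.09e-05), *Rsad2* (-2.99 ± 0.62), *Dtx3l* (-2.49 ± 0.35), *Ddx58* (-2.35 ± 0.40) and *Herc6*, the ligase that attaches ISG15 in mice (-2.34 ± 0.56), had the most negative values. *Dtx3l* did not pass the filter in colon alone, where it had 110 counts. It entered this fit and the tissue differences through the ileum, so its lower level in colon follows in part from the filter. *Ifit1*, for example, had a median of 143 CPM over the 18 ileum libraries and 16.4 CPM over the 18 colon libraries. The median was not lower in colon for every member. *Cmpk2* had medians of 21.3 CPM in ileum and 22.0 CPM in colon, with means of 86.8 and 27.4 CPM. *Oas1a* had medians of 10.3 and 20.4 CPM, with means of 44.9 and 27.4 CPM. The part of the high-score ileum libraries in the tissue differences was not tested.

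*Cxcl11* was the member that was higher in colon (1.53 ± 0.28 SE). It ran from 22.7 to 149 CPM in colon and from 8.02 to 71.8 CPM in ileum. Its neighbour *Cxcl10*, which signals through the same receptor, was lower in colon (-2.02 ± 0.45 SE), from 5.23 to 24.0 CPM in colon and from 9.06 to 296 CPM in ileum. The next most positive members were *Ifit2* (0.37 ± 0.40), *Mx1* (0.09 ± 0.36), *Rtp4* (0.05 ± 0.33) and *Lgals3bp* (-0.04 ± 0.38), none of which passed. By role, 6 of 7 genes of ISG15 and ADP-ribose conjugation, 3 of 3 antigen processing genes, 3 of 4 sensors, 3 of 5 transcription factors, 7 of 13 effectors and 0 of 2 guanylate binding genes were lower in colon. The 7 genes include *Dtx3l*, which entered the fit through the ileum.

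The colon library of K4028, which carried ileal *Fabp6*, was high in some and low in others of the effectors that were lower in colon. Its *Ifit1* was 61.1 CPM against 2.80 to 48.5 CPM in the other ND colon libraries. Its *Rsad2* was 23.4 CPM, within their range of 2.55 to 23.5 CPM, and its *Cmpk2* was 17.9 CPM, within 12.4 to 38.6 CPM. Its *Samd9l* was 19.4 CPM, under their range of 20.2 to 65.2 CPM. The part of ileal RNA in these values was not tested.

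Each group contrast was also compared between the tissues (ileum minus colon). For D1M vs ND all 42 members were positive, against 47.6% of all genes, with a median of 1.31 against -0.01. edgeR called 0 members and 0% of all genes, with 14 members at the unadjusted p against 5.66% of all genes. DESeq2 called 0, with 19 at that p against 6.12% of all genes. With the rat as a block there were 0 calls, 20 members at that p against 4.85% of all genes, and a median of 0.90. Without the libraries of K4028 in colon and K4040 in ileum there were 12 members at that p and a median of 1.63. Leaving out 1 library moved the 14 members between 3 (without the ileum of K3986) and 25 (without the colon of K3987). The smallest p were those of *Ddx58* (2.46 ± 0.80 SE, FDR = 0.695), *Parp14* (1.71 ± 0.56), *Zbp1* (3.18 ± 1.08) and *Cmpk2* (2.82 ± 1.16). In K3978, the *Zbp1* level was 72.0 CPM in ileum, with 3.41 CPM in colon. This rat is no typical case, with score rank 4 in ileum and 13 in colon, while K3987 had ranks 1 and 3.

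For D3M vs ND the tissue difference had 36 positive members, against 51.7% of all genes, and a median of 0.48. For D3M vs D1M it had 0 positive members, against 54.5% of all genes, and a median of -0.77. Neither gave a call among the members in edgeR or DESeq2, where edgeR called 1.56% and 0% of all genes. At the unadjusted p there were 1 and 2 members in edgeR, against 16.8% and 8.31% of all genes, and 1 and 4 in DESeq2, against 17.2% and 8.39%. Without the libraries of K4028 in colon and K4040 in ileum, the D3M vs ND difference had a median of 0.79 and 0 members at that p in edgeR.

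The rest of the pathway was examined with lists of its other genes. Interferon transcripts were almost absent. *Ifnb1*, *Ifnl1* and the 5 interferon alpha genes of the table had 0 counts in all 36 libraries. A count of 0 allows up to 3 counts in a library, which is 0.139 to 0.299 CPM here, for counting error only. *Ifng* had 3 counts in 1 ileum library, *Ifne* 5 counts in 2 ileum libraries, *Ifnk* 1 count in ileum and *Ifnl3* 1 count in colon.

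The receptors and the relay were examined in D3M vs ND ileum, where 8.31% of all genes were called higher. There, 2 of 6 receptor genes rose, *Ifngr2* (log2 fold change 0.35) and *Il10rb* (0.41), a chain of the interferon lambda receptor. Of 7 JAK-STAT genes, *Stat3* (0.56) and *Tyk2* (0.40) rose. Of 14 genes of class I antigen presentation 5 rose: *B2m* (0.52), *RT1-A1* (0.78), *RT1-CE1* (0.54), *RT1-CE10* (0.67) and *Tapbpl* (0.54), of which the RT1 genes are near-identical copies whose reads may be split. In the nucleic acid sensing list, 2 of 16 rose, *Myd88* (0.40) and *Tbk1* (0.49). No gene of these 4 lists fell, and 0 of 7 inhibitors passed. *Tbk1* (0.40) and *Il10rb* (0.33) also rose in D3M vs D1M ileum. None of these genes passed in D1M vs ND ileum or in the group comparisons in colon. Markers of other kinds moved in the same comparison. Of 10 markers of ileal identity 7 rose, with a median of 0.85 over the 10, among them *Fabp6* (0.78) and *Slc10a2* (0.87), the ileal bile acid transporter. Of 9 epithelial markers 3 rose and 1 fell, with a median of 0.34. Of 8 plasma cell markers *Prdm1* (1.19) and *Sdc1* (0.70) rose, with a median of 0.26 over the 8. Of these 8, 5 were positive and 3 negative. The summed level of the ileal markers ran from 28652 to 45373 CPM in ND and from 45253 to 79416 CPM in D3M ileum, that of 9 epithelial markers from 18865 to 26726 CPM and from 26963 to 35620 CPM, and that of 9 plasma cell markers from 813 to 899.98 CPM and from 1067 to 1549 CPM. The part of these cells in the values of the receptor, relay and class I genes was not tested.

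A further list of 59 other interferon-induced genes, of which 48 were in the table, showed the same rats. The 6 high rats were each among the 6 highest ileum libraries for 32 to 41 of the 44 genes tested, and no other rat for more than 7. In D1M vs ND ileum 38 of 44 were positive, against 43.5% of all genes, and 20 passed the unadjusted p, against 8.34% of all genes. None was called, with 0.0154% of all genes called, and the median was 0.72. The smallest p were those of *Batf2* (1.91 ± 0.56 SE, FDR = 0.406), *Mov10* (0.57 ± 0.18) and *Ddx60* (1.92 ± 0.61). In their promoters the ISRE core was found in 24 of 42 (57.1%).

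Markers of B cells did not follow the score. The summed level of 16 B cell markers in ileum ran from 45.4 to 1270.3 CPM in ND, from 37.8 to 882 CPM in D1M and from 35.0 to 462 CPM in D3M rats. It was 462 CPM or more in 6 ileum libraries and 62.6 CPM or less in the others. Of the 6, K3986 and K3959 had a high score and K4028, K4038, K4047 and K3990 did not. *Vpreb3* had no count. With the B cell score as a covariate, 28 of 42 members passed the unadjusted p in D1M vs ND ileum, against 9.59% of all genes, 0 were called, and the median was 1.41. Plasmacytoid dendritic cells are a major source of type I interferon, and their 8 markers together ran from 265 to 394 CPM in ND, from 248 to 456 CPM in D1M and from 200.3 to 342 CPM in D3M ileum. The highest values were those of K3986 (456 CPM), K4047 (394 CPM) and K4028 (393 CPM). The 16 T and NK cell markers ran from 146 to 269 CPM in ND, from 134 to 263 CPM in D1M and from 58.0 to 246 CPM in D3M ileum, and the 14 macrophage and dendritic cell markers from 1069 to 3404 CPM, from 1482 to 2129.8 CPM and from 672 to 2013 CPM in the same order. The 8 smooth muscle markers ran from 1380 (K4028) to 6600 CPM (K4048) in ND ileum. They ran from 1086 (K3978) to 7121 CPM (K3988) in D1M and from 1084 (K3977) to 7199 CPM (P780) in D3M ileum. In both diabetic groups the lowest of these rats had a high score and the highest a low score. In ND both K4028 (score -0.88) and K4048 (-0.81) had a low score. The rats between these extremes are not given. The part of these cells in the members' levels was not tested. Without the ileum library of K4040, the D1M vs ND ileum median was 1.44 with 28 members at the unadjusted p, against 6.44% of all genes, and none was called.

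The row spelled XAF1, an apoptosis factor induced by interferon, had 2030 counts in ileum and 361 in colon. Its log2 fold change was 2.13 ± 0.85 SE in D1M vs ND ileum (FDR = 0.548) and -2.0 ± 0.46 in colon vs ileum, within the range of the members in both.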

How the data were processed

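Male UCD-T2DM rats gave 18 ileum and 18 colon libraries. According to the authors, poly-A RNA was made into libraries with a stranded TruSeq kit, sequenced, aligned with STAR to rn6 and counted per gene in SeqMonk. Neither the STAR version nor the strand setting of counting was found in the sources. The deposited raw counts are whole numbers with no normalization. A deposited table of log2 values relative to library size, and columns of standard deviations that hold only 0, were not used.

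Groups, rats and flow cells were taken from the labels. Each tissue was fitted in edgeR 4.0.16 (R 4.3.3) with filterByExpr (minimum count 10), TMM, estimateDisp, and glmQLFit (robust, legacy form) on group and flow cell (3 levels). The adjusted p-values of glmQLFTest are FDRs by Benjamini-Hochberg over all genes tested, with calls at 0.05. SE is the log2 fold change divided by the square root of F. Colon vs ileum and the tissue difference were fitted over all 36 libraries, without a rat term in the main fits. Log2 CPM used a prior count of 2. Alternatives were DESeq2 1.42.0, RLE size factors, no filter, no flow cell term, single flow cells, only the 2 groups compared, a B cell covariate, the edgeR 4 method, each library left out in turn, and the rat as replicate block, which pairs libraries of the same animal.

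The members and lists were chosen with earlier results of these data known. Members named with values were 1 of each role and, for each comparison, the 4 of smallest p, the 5 extremes of colon vs ileum and the 5 of largest spread in each tissue. Other members named, such as *Psmb9*, *Gbp5* and *Ifi44l*, were chosen after their values were seen. One planned gene is not reported here. On data simulated from ileum D3M vs ND with 12929 genes, 71% of genes changed 2-fold and 93% changed 4-fold were recovered. For colon D3M vs ND, with 12785 genes, these shares were 80% and 93%. The changed genes were drawn from all genes above a set mean count, with the same change in every library of the group. These shares therefore do not hold for the members, whose median BCV in ileum was 0.63, against 0.18 over all genes tested. Lengths were not given, so levels were not compared between genes. The rats are the replicates, and figures were drawn with matplotlib 3.10.9.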

Additional observations from a re-analysis of the deposited data

Results flagged for a closer look

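In each group of 6 libraries, the highest and the lowest value were set against the nearest other value of the group. In 3 of the 54 groups examined, which hold 1 member of each role and the score, the gap, as a share of the whole range of the group, exceeded Dixon's 95% critical value. Chance gives about 1 in 20 such groups, which is close to the share seen here.

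In all 3 the rats were ND rats. For *Gbp2* in ileum, K4028 was lowest with a log2 CPM of 3.86, and the next rat had 4.42. For *Cxcl10* in ileum, K4038 was highest with a log2 CPM of 7.28, against 4.50 in the next rat. In colon, the interferon-stimulated gene score of K4038 was highest among ND rats at 0.56, and the next was -0.01. K4038 was also the highest of the ND rats in ileum score (0.08). No cause was tested.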

How the results depend on the processing

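The count of members called stayed within 1.5 times the value reported, or stayed at 0, in 79 of 83 refits that changed a setting. The value reported was 0 in every comparison except colon vs ileum, so most of these refits only gave 0 calls again. Counts at the unadjusted p are not part of this tally. The exceptions were ileum D3M vs ND, where 3 members were called by DESeq2 and 7 without the flow cell term, ileum D3M vs D1M, where DESeq2 called 1, and colon D3M vs ND, where 1 was called in the fit of these 2 groups alone. Leaving out 1 library gave from 0 to 1 calls in ileum D3M vs ND (1, *Parp9*, without K3987) and in ileum D3M vs D1M (1, *Bst2*, without K3977), 0 in the other group comparisons and tissue differences, and from 23 to 27 in colon vs ileum. The replicate block, which pairs the tissues of a rat, changed no count by over 1.5 times, with 27 calls in colon vs ileum and 0 in each tissue difference.

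Among values of named members, the sign turned within single flow cells, with 2 to 4 libraries a group, for *Gbp2* in ileum D3M vs D1M (0.15, flow cell 1), for *Ddx58* (0.15) and *Irf1* (0.14) in colon D1M vs ND (flow cell 2), and in ileum D3M vs ND on flow cell 3 for *Mx1* (-1.13), *Gbp2* (-0.53), *Cxcl10* (-0.42) and *Psmb8* (-0.00039). With only the 2 groups in the fit, *Mx1* (-0.027) and *Gbp2* (-0.24) turned in ileum D3M vs ND. Leaving out 1 library spanned 0 in ileum D3M vs ND for *Cxcl10* (-0.19 to 1.05), *Gbp2* (-0.088 to 0.28) and *Mx1* (-0.20 to 1.05), in ileum D3M vs D1M for *Mx2* (-1.96 to 0.13), and in colon vs ileum for *Lgals3bp* (-0.23 to 0.14), *Mx1* (-0.030 to 0.23) and *Rtp4* (-0.18 to 0.20). The cause was not tested. *Gbp2* and *Mx1* in ileum D3M vs ND have no stable direction.

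A planned correlation of ileum with colon over rats, and the members it would have named, are not given, because the ileum scores lie in separate clusters. Depth limits the members of lowest count, *Ddx58*, *Dtx3l* and *Oas2* in colon, with medians under 1 CPM. The ileum library of P762 was among those left out in turn. The part of RNA of the other tissue in its values was not tested.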
